A study of Mus musculus with 6 samples.

Results

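*Abhd11*, the 3 subunit genes of the oxoglutarate dehydrogenase complex (*Ogdh*, *Dlst* and *Dld*) and the 3 genes of lipoyl attachment (*Lias*, *Lipt1* and *Lipt2*) were examined in duodenal epithelium of WT and *Esrra*-/- mice. These 7 genes were chosen by name, as the subunits of 1 lipoylated complex, the enzymes that lipoylate it and the hydrolase that protects it, out of 22611 genes in the deposited table. RNA-seq had been performed on 3 WT and 3 *Esrra*-/- libraries, described as biological replicates. *Esrra*-/- mice carry a germline loss of *Esrra*, the gene of the nuclear receptor ESRRA, in every tissue, and the WT mice were their littermates. All mice had been fed a high-fat diet for about 8 weeks, and males and females were used, with age and the sex behind each library not given in the sources used here. The epithelium had been released with EDTA from the duodenum, so each library holds a mixture of crypt and villus cells. In such bulk samples, fewer cells of a type and less RNA per cell cannot be told apart.

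The oxoglutarate dehydrogenase complex sits in the mitochondrial matrix and turns 2-oxoglutarate into succinyl-CoA in the tricarboxylic acid (TCA) cycle. OGDH (the E1 subunit) decarboxylates the substrate, DLST (E2) carries the intermediate on a swinging lipoyl arm, and DLD (E3) reoxidizes that arm. The arm is built on the protein itself: LIPT2 places an octanoyl group from mitochondrial fatty acid synthesis on the glycine cleavage protein GCSH, LIAS inserts sulfur atoms drawn from iron-sulfur clusters, and LIPT1 passes the finished lipoyl group to the E2 subunits. ABHD11 is a mitochondrial serine hydrolase known to keep DLST in its lipoylated, functional form.

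*Esrra* itself was lower in each *Esrra*-/- library (8.72 to 10.4 FPKM) than in each WT library (49.4 to 104 FPKM), as the labels require (log2 fold change -2.92, SE 0.26, adjusted p = 0.0215, limma). The table gives FPKM (fragments scaled by transcript length and by library total) and no counts. The study states a nominal sequencing depth, but the number of reads behind each value is unknown. A mean above 1 FPKM over the 6 libraries was required for a test, which left 10596 genes, and all 7 genes of interest passed with a mean above 1 in each genotype. Log2 fold changes are *Esrra*-/- minus WT on the log2(FPKM + 0.1) scale, and a gene was called at an unadjusted p under 0.05 with a log2 fold change beyond 0.58. By this rule 3.28% of all genes tested were called lower and 1.35% were called higher in *Esrra*-/-. When p-values were adjusted by Benjamini-Hochberg across the whole table, 4 genes stayed under 0.05, none of them among the 7, so the calls below rest on unadjusted p-values.

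The cell makeup of the libraries was read from marker lists. The summed FPKM of 12 villus enterocyte markers was 38878 to 63820 in WT and 49184 to 65820 in *Esrra*-/-, with 0 of 12 called by limma. Crypt markers summed to 213 to 345 in WT and 104 to 251 in *Esrra*-/- (2 of 10 called lower), and Paneth cell markers to 9802 to 19874 and 1917 to 8409 (4 of 6 called lower). Immune markers ranged from 324 to 1459 in WT and from 739 to 2138 in *Esrra*-/-, and 7 of 10 pancreatic acinar markers were at 0 in every library. Genes of the mitochondrial DNA took 26.3 to 33.5% of all FPKM in WT and 23.8 to 28.3% in *Esrra*-/-. The part of these differences in the values below was not tested.

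Among the 7 genes 1 was called lower, *Lipt2*, and 0 were called higher by limma. At an unadjusted p under 0.05 with any fold change, 3 were lower, *Lipt2*, *Dld* and *Abhd11*, where 6.49% of all genes tested were lower and 4.30% higher. *Dld* and *Lipt2* stayed under that p in each alternative they entered, whereas *Abhd11* rose above it in 6 of 15. The same 3 genes had every *Esrra*-/- value below every WT value, a pattern held by 9.14% of all genes tested (8.45% had it the other way round). The median log2 fold change of the 7 genes was -0.29, with 6 negative and 1 positive, and that of all genes tested was 0.030, with 4842 negative and 5754 positive.

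**Figure D1:**
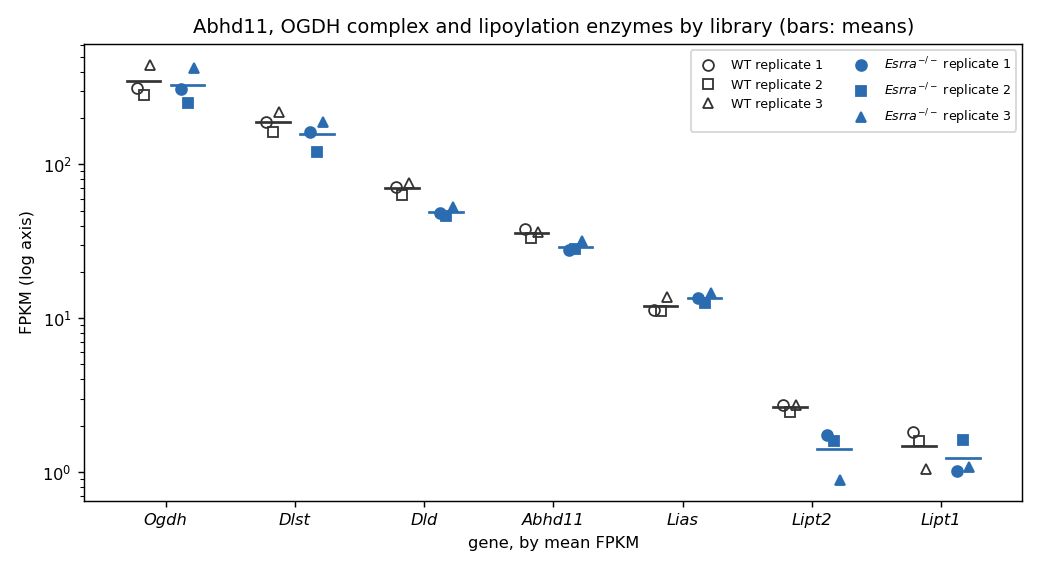
FPKM of the 7 genes in each of the 6 libraries, on a log axis, with genes ordered by mean FPKM, open symbols for WT, filled symbols for *Esrra*-/- and bars for the genotype means. *Ogdh* lies near 338 FPKM and *Lipt1* near 1.36 FPKM, and the genotypes separate for *Dld*, *Abhd11* and *Lipt2*.

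*Ogdh* (chr11:6191636-6256645, plus strand, NCBIM37/mm9), the E1 gene, was the most abundant of the 7, above 97.2% of the genes tested in mean FPKM. It stood at 315.8, 284.4 and 445.0 FPKM in WT replicates 1 to 3 and at 311.0, 249.5 and 422.3 FPKM in *Esrra*-/- replicates 1 to 3. The genotypes overlapped almost wholly, and replicate 3 was the highest library in each. Means were 348 ± 85.1 FPKM (WT) against 328 ± 87.6 FPKM (*Esrra*-/-, SD, n = 3 each), or 94.0% of WT. The log2 fold change was -0.096 (SE 0.26, 95% interval -0.71 to 0.51, adjusted p = 0.916, limma), so a change by the cut of 0.58 downwards was inside the interval and one upwards by as much was outside it. The sign turned without WT replicate 3 (0.094) and without *Esrra*-/- replicate 2 (0.084).

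*Dlst* (chr12:86451783-86475041, plus strand) encodes the E2 core that bears the lipoyl arm. Its FPKM was 188.7, 161.8 and 219.9 in WT and 162.3, 121.0 and 188.0 in *Esrra*-/-. The lowest WT library lay below the highest *Esrra*-/- library, and replicate 3 was again the highest of each genotype. *Esrra*-/- stood at 82.6% of WT, from 190 ± 29.0 to 157 ± 33.8 FPKM (SD, n = 3 each). The log2 fold change of -0.29 (SE 0.21, 95% interval -0.78 to 0.21, adjusted p = 0.650, limma) did not pass the test, and it ranged from -0.43 to -0.11 when single libraries were left out, the smallest without *Esrra*-/- replicate 2.

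*Dld* (chr12:32016429-32036302, minus strand) encodes the E3 dehydrogenase, which the pyruvate, branched-chain and glycine cleavage systems use as well. Its FPKM was 70.8, 63.2 and 75.5 in WT and 48.4, 46.0 and 52.8 in *Esrra*-/-. All 3 *Esrra*-/- libraries lay below all 3 WT libraries, and the spread within each genotype was small. Means were 69.8 ± 6.21 FPKM (WT) against 49.1 ± 3.44 FPKM (*Esrra*-/-, SD, n = 3 each), or 70.3% of WT. With a log2 fold change of -0.51 (SE 0.13, 95% interval -0.82 to -0.19, unadjusted p = 0.00612, adjusted p = 0.304, limma), *Dld* stayed short of the fold cut and was not called. An exact two-sided permutation test of its FPKM gave p = 0.1, the smallest that 3 against 3 libraries allow.

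*Abhd11* (chr5:135485022-135488045, plus strand) was measured at 38.0, 33.5 and 36.5 FPKM in WT and at 27.7, 28.3 and 31.8 FPKM in *Esrra*-/-. The groups did not overlap, and *Esrra*-/- replicate 3 came closest to the WT libraries. Means were 36.0 ± 2.33 FPKM (WT) against 29.2 ± 2.21 FPKM (*Esrra*-/-, SD, n = 3 each), or 81.2% of WT, a log2 fold change of -0.30 (SE 0.12, 95% interval -0.59 to -0.012, adjusted p = 0.444, limma). The study had named *Abhd11* a target of ESRRA partly from these libraries, so this direction is a description and not independent evidence, and its place in the counts above supports nothing. *Abhd11* was not called. Its fold change lay between -0.36 and -0.26 over the 15 alternatives, and its unadjusted p of 0.0433 ranged from 0.0122 to 0.142, above 0.05 without any 1 of WT replicates 1, 2 and 3 and *Esrra*-/- replicates 1 and 2 and in limma without a trend. At its 3′ end *Abhd11* shares 62 bases of its span, exon bases among them, with an antisense gene, *Abhd11os*, on the opposite strand. The library kit does not mark strand, so reads of the shared stretch cannot be assigned to either gene, and *Abhd11os* was not analysed here.

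The enzymes of lipoyl attachment had lower levels than the complex they serve. *Lias* (chr5:65782736-65801932, plus strand), the lipoyl synthase gene, was the only member of the 7 with a positive log2 fold change. It stood at 11.3, 11.1 and 13.7 FPKM in WT and at 13.4, 12.5 and 14.5 FPKM in *Esrra*-/-. The groups overlapped, and the log2 fold change of 0.17 (SE 0.13, 95% interval -0.14 to 0.48, adjusted p = 0.678, limma) did not pass the test.

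*Lipt2* (chr7:107307787-107309875, plus strand), the octanoyl transferase gene of the first step, fell in *Esrra*-/-. Its FPKM was 2.72, 2.44 and 2.72 in WT and 1.73, 1.60 and 0.885 in *Esrra*-/-. Every *Esrra*-/- library lay below every WT library, and *Esrra*-/- replicate 3 was the lowest by a wide margin. The same library was the lowest of the 6 in the summed FPKM of crypt markers (104, against 167 and 251 in the other *Esrra*-/- libraries) and of Paneth cell markers (1917, against 6018 and 8409), and the part of these cells in the values of *Lipt2* was not tested. Means were 2.62 ± 0.161 FPKM (WT) against 1.40 ± 0.454 FPKM (*Esrra*-/-, SD, n = 3 each), or 53.5% of WT, with a log2 fold change of -0.91 (SE 0.28, 95% interval -1.55 to -0.26, unadjusted p = 0.0124, adjusted p = 0.342, limma). Only 1.45% of the genes tested had a more negative fold change. The call held in all 14 alternatives that included *Lipt2*, with adjusted p from 0.151 to 0.760. The fold change was -0.63 without *Esrra*-/- replicate 3 and -0.60 without replicate 3 of both genotypes. *Lipt2* lay near the lower end of the genes tested, above 11.6% of them in mean FPKM, and a requirement of more than 1 FPKM in all 6 libraries leaves it out.

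*Lipt1* (chr1:37928583-37934232, plus strand), the lipoyl transferase gene of the last step, was the least abundant, at 1.82, 1.58 and 1.04 FPKM in WT and 1.02, 1.61 and 1.07 FPKM in *Esrra*-/-. Single libraries of each genotype were high and others low, and the groups overlapped. The log2 fold change was -0.24 (SE 0.31, 95% interval -0.97 to 0.50, adjusted p = 0.808, limma), an interval wide enough to hold a decrease the size of that of *Lipt2*. *Lipt1* shares 2587 bases of its span, introns included, with *Mitd1* on the opposite strand. Exons of these genes overlap there, but the number of exon bases shared was not measured. *Mitd1* stood at 6.52 ± 0.927 FPKM (WT) against 6.91 ± 1.27 FPKM (*Esrra*-/-, SD, n = 3 each). Reads from shared exon bases cannot be told apart without strand, so the level of *Lipt1* is uncertain.

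The order of the levels was *Ogdh*, *Dlst*, *Dld*, *Abhd11*, *Lias*, *Lipt2* and *Lipt1*. Neighbours in this order did not overlap in FPKM within a genotype, except *Lipt2* and *Lipt1* in *Esrra*-/-, where *Lipt2* ranged from 0.885 to 1.73 and *Lipt1* from 1.02 to 1.61 FPKM. FPKM is scaled by transcript length, so these levels can be set against each other.

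**Figure D2:**
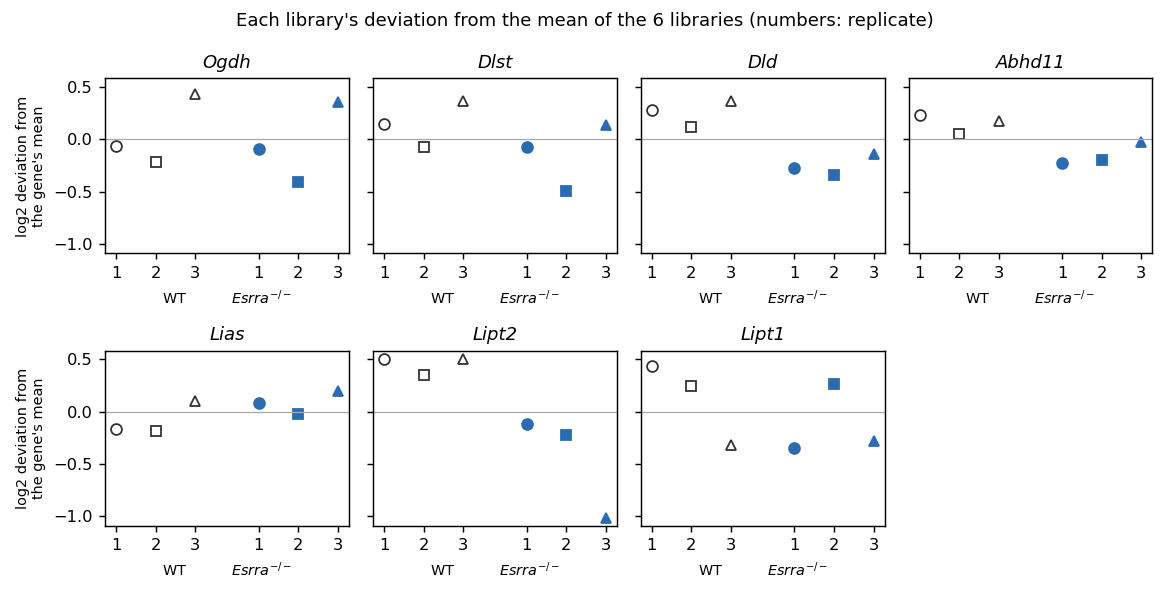
Deviation of each library from the gene's mean over the 6 libraries, in log2(FPKM + 0.1), 1 panel per gene with WT replicates 1 to 3 at the left and *Esrra*-/- replicates 1 to 3 at the right. *Ogdh* and *Dlst* peak in replicate 3 of each genotype, whereas *Dld* and *Abhd11* are positive in WT and negative in *Esrra*-/-.

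The members differed in what separated their libraries. *Ogdh* followed the library more than the genotype, from 0.43 in WT replicate 3 to -0.41 in *Esrra*-/- replicate 2 around its own mean on the log2 scale, whereas *Dld* ranged from 0.11 to 0.37 in WT and from -0.34 to -0.14 in *Esrra*-/-. The root mean square distance between 2 centred profiles over the 6 libraries was 0.14 for *Ogdh* and *Dlst*, 0.12 for *Dld* and *Abhd11*, and 0.27 for *Ogdh* and *Abhd11*, in log2 units. WT replicate 3 and *Esrra*-/- replicate 3, the libraries highest for *Ogdh* and *Dlst*, also had the largest FPKM sums over all genes (999902 and 901171, the others 707094 to 818406). These 2 libraries had nearly no Y-linked transcripts (summed FPKM 0.0487 and 0.222, the others 27.3 to 46.7). With presence of Y-linked transcripts as a covariate, the SE fell from 0.26 to 0.12 for *Ogdh* and from 0.21 to 0.14 for *Dlst*. This covariate is balanced between the genotypes, so it could not move the fold changes of -0.096 and -0.29. Both lie short of the fold cut, so neither gene could be called in that fit.

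Other complexes that need a lipoyl arm were set beside it. Of 13 genes of the pyruvate dehydrogenase (PDH), branched-chain ketoacid dehydrogenase and glycine cleavage systems and related subunits, 10 passed the filter, 5 were called lower and 0 higher, and the median log2 fold change was -0.44. The shares called over all genes tested were 3.28% lower and 1.35% higher. *Pdha1*, *Pdhb*, *Dlat* and *Pdhx*, the E1, E2 and E3-binding subunits of PDH, which feeds the TCA cycle with acetyl-CoA, all fell, with a median of -0.71. *Bckdhb*, an E1 subunit of the branched-chain complex, fell too (log2 fold change -0.79, SE 0.30, limma), and the other genes of that complex, named after their values were seen, stood at 0.11 (*Bckdha*, SE 0.19) and -0.19 (*Dbt*, SE 0.13). *Mrps36*, the most abundant of the list and known as KGD4, an adaptor of the oxoglutarate dehydrogenase complex, had a log2 fold change of -0.28 (SE 0.21) and was not called.

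*Pdha1* stood at 63.8, 70.2 and 71.5 FPKM in WT and at 38.5, 38.6 and 44.2 FPKM in *Esrra*-/-, and its log2 fold change was -0.76 (SE 0.13, adjusted p = 0.151, limma). *Dlat*, the PDH counterpart of *Dlst*, stood at 19.0, 16.8 and 21.9 FPKM in WT and at 9.89, 9.02 and 11.8 FPKM in *Esrra*-/-, with a log2 fold change of -0.91 (SE 0.15, adjusted p = 0.158, limma). Both genes separated the genotypes in all 6 libraries and were called in 15 of 15 alternatives, with adjusted p from 0.0405 to 0.586 for *Pdha1* and from 0.0450 to 0.586 for *Dlat*. *Pdhb* (-0.65) lost its call without WT replicate 3 (-0.54). *Pdhx* (-0.60) lost it without WT replicate 1, *Esrra*-/- replicate 1 or *Esrra*-/- replicate 2 (-0.50 to -0.55) and with a pseudocount of 1 (-0.56), and was called in 11 of 15 alternatives. *Bckdhb* lost it without WT replicate 1 or 2 and without *Esrra*-/- replicate 2 or 3. The list had 3 calls in place of 5 without WT replicate 1 and without *Esrra*-/- replicate 2.

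**Figure D3:**
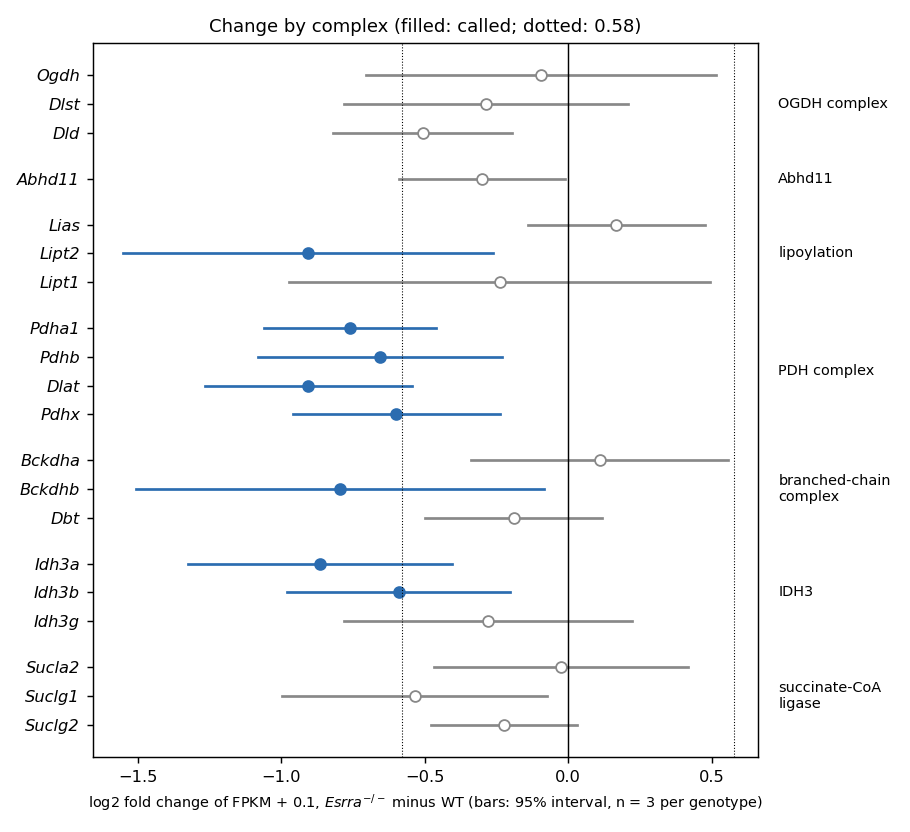
Log2 fold change (*Esrra*-/- minus WT, log2(FPKM + 0.1) scale) of the 7 genes and of subunit genes of related complexes, with bars for 95% intervals over 3 libraries per genotype, filled points for called genes and dotted lines at the cut of 0.58. All 4 PDH genes are called lower and 0 of 3 genes of the oxoglutarate dehydrogenase complex are.

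A called and an uncalled gene do not by that differ from each other. Ratios of FPKM between genes of the same library are given as a description, with no test, since the pairs were chosen after their values were seen. *Pdha1* over *Ogdh* was 0.202, 0.247 and 0.161 in WT and 0.124, 0.155 and 0.105 in *Esrra*-/-. *Dlat* over *Dlst* was 0.101, 0.104 and 0.0998 in WT and 0.0610, 0.0745 and 0.0626 in *Esrra*-/-. Both E1 and E2 ratios were lower in every *Esrra*-/- library than in any WT library, by 0.67 and 0.63 on the log2 scale. *Pdhb* over *Ogdh* (-0.56) and *Idh3a* over *Ogdh* (-0.77) separated the genotypes in the same direction. Whether the complexes differed in their change was not tested.

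Within the complex the ratios overlapped between genotypes. *Ogdh* over *Dld* was 4.46, 4.50 and 5.90 in WT and 6.43, 5.42 and 7.99 in *Esrra*-/-, and *Ogdh* over *Dlst* was 1.67, 1.76 and 2.02 in WT and 1.92, 2.06 and 2.25 in *Esrra*-/-. *Abhd11* over *Dlst* was 0.191 ± 0.0220 in WT and 0.191 ± 0.0369 in *Esrra*-/- (SD, n = 3 each). *Lias* over *Lipt2* was 4.14, 4.57 and 5.03 in WT and 7.77, 7.82 and 16.4 in *Esrra*-/-, with no overlap.

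**Figure D4:**
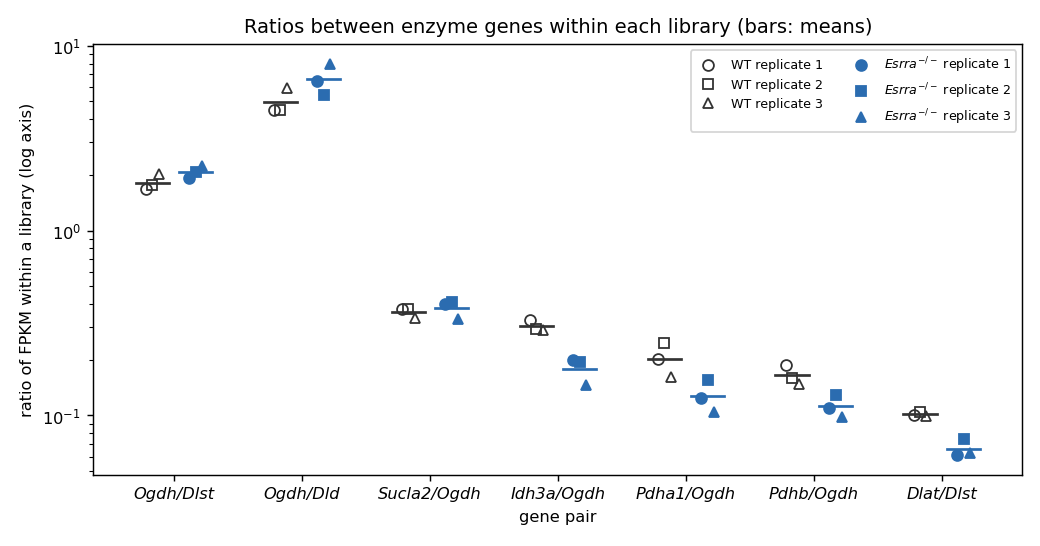
Ratio of FPKM between pairs of enzyme genes within each library, on a log axis, with open symbols for WT, filled symbols for *Esrra*-/- and bars for the genotype means. The ratios of *Idh3a*, *Pdha1* and *Pdhb* to *Ogdh* and of *Dlat* to *Dlst* separate the genotypes, and those of *Ogdh* to *Dlst* and *Dld* and of *Sucla2* to *Ogdh* overlap.

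*Dlst* made up most of the transcript level of the 5 lipoyl carrier genes measured, *Dlst*, *Dlat*, *Pdhx*, *Dbt* and *Gcsh* (*Pdhx* carries a lipoyl domain too). It took 75.9 ± 1.84% of their summed FPKM in WT and 78.6 ± 2.70% in *Esrra*-/- (SD, n = 3 each). The share of *Dlat* was 7.70 ± 0.138% in WT and 5.18 ± 0.397% in *Esrra*-/-, with no overlap. The summed level was 250 ± 32.7 FPKM in WT and 199 ± 37.0 FPKM in *Esrra*-/-.

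The TCA cycle around the complex was examined step by step. All 15 genes of the cycle outside the complex had a negative log2 fold change, 7 were called lower and 0 higher, and their median was -0.56. Of all 10596 genes tested 4842 were negative, 3.28% were called lower and 1.35% higher. The step before the complex is catalysed by isocitrate dehydrogenase 3, of which *Idh3a* (-0.86, SE 0.20) and *Idh3b* (-0.59, SE 0.17) fell. *Idh3a* stood at 104, 83.5 and 129 FPKM in WT and at 61.7, 48.4 and 61.6 FPKM in *Esrra*-/-, so the genotypes did not overlap. *Idh2*, the NADP-dependent isocitrate dehydrogenase of the matrix, fell as well (-0.64, SE 0.21). The call of *Idh2* was lost without WT replicate 3 (-0.41) and without replicate 3 of both genotypes (-0.47).

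The step after the complex, succinate-CoA ligase, had 0 of 3 genes called by limma, as in the complex itself, with 1 of 3 at an unadjusted p under 0.05 (*Suclg1*, -0.54, SE 0.20, a gene outside the naming rule, which was called without WT replicate 1, WT replicate 2 or *Esrra*-/- replicate 3, at -0.60 to -0.67). *Sucla2*, named after its values were seen, stood at -0.025 (SE 0.19), and its ratio to *Ogdh* overlapped between genotypes. Further on, *Sdha* (-0.65, SE 0.15), *Sdhb* (-0.64, SE 0.23) and *Sdhd* (-0.68, SE 0.21) of succinate dehydrogenase and *Fh1* (-0.74, SE 0.15), the fumarase gene, fell. *Mdh2*, malate dehydrogenase and the most abundant gene of the list at 1264 ± 285 FPKM in WT, had a log2 fold change of -0.051 (SE 0.25). *Idh3a* and *Fh1* were called in 15 of 15 alternatives. The count of 7 was 3 without WT replicate 3, 3 without *Esrra*-/- replicate 1 and 4 without *Esrra*-/- replicate 2, and it was 9 without WT replicate 1, 8 without WT replicate 2 and 9 without *Esrra*-/- replicate 3.

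Genes that supply the lipoyl group were examined next. Mitochondrial fatty acid synthesis makes the octanoyl group that LIPT2 transfers. Of its 8 genes tested 1 was called lower and 0 higher (3.28% and 1.35% of all genes tested). The gene that fell was *Ndufab1*, the acyl carrier protein, which is also a subunit of respiratory complex I. *Ndufab1* stood at 132, 133 and 180 FPKM in WT and at 96.1, 76.5 and 100.4 FPKM in *Esrra*-/-, with no overlap (log2 fold change -0.70, SE 0.19, adjusted p = 0.309, limma). The call was lost without WT replicate 3 (-0.55) and without *Esrra*-/- replicate 2 (-0.58). *Mecr*, the enoyl reductase (-0.36, SE 0.14), and *Rpp14*, whose transcript also encodes the dehydratase HTD2 (-0.37, SE 0.16), were not called, and the list's median was -0.20.

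Lipoyl synthase consumes iron-sulfur clusters. Of 15 genes of cluster assembly and delivery, 3 were called lower, 0 higher, and 7 were lower at an unadjusted p under 0.05, with a median log2 fold change of -0.26. Among all genes tested 3.28% were called lower, 1.35% higher, and 6.49% were lower at that p. *Bola3*, which with NFU1 is needed for lipoylation in humans, stood at 44.4, 48.3 and 56.1 FPKM in WT and at 28.1, 30.5 and 29.9 FPKM in *Esrra*-/- (-0.74, SE 0.13, adjusted p = 0.165, limma). *Isca1*, a late assembly factor, fell by 0.72 on the log2 scale (SE 0.15), and both genes were called in 15 of 15 alternatives. *Fdx1*, a ferredoxin known to act in protein lipoylation, fell by 0.59 (SE 0.24), with overlapping groups, and lost its call without WT replicate 2 or 3 and without *Esrra*-/- replicate 1 or 2, as well as with a pseudocount of 1 and in limma without a trend, which left it called in 9 of 15 alternatives. *Hscb* (-0.52, SE 0.11) and *Hspa9* (-0.46, SE 0.13), the chaperones that hand clusters on, did not overlap between genotypes but stayed short of the fold cut. *Nfu1* stood at 27.1 ± 1.06 FPKM (WT) against 28.0 ± 1.13 FPKM (*Esrra*-/-, SD, n = 3 each), and it is named after its values were seen.

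Regulators of lipoyl-dependent complexes and matrix proteases were also listed. Of the lipoamidase *Sirt4* (-0.092, SE 0.21) and the matrix protease genes *Clpp* (-0.11, SE 0.13), *Clpx* (0.10, SE 0.12) and *Lonp1*, 0 of 4 were called by limma and 0 had an unadjusted p under 0.05. Of 7 kinases and phosphatases that act on phosphorylation of the E1 subunits of the PDH and branched-chain complexes and passed the filter, 0 were called and 0 had an unadjusted p under 0.05. *Pdk4*, a PDH kinase gene, stood at 14.3 ± 3.82 FPKM in WT and 19.0 ± 3.77 FPKM in *Esrra*-/- (0.43, SE 0.24), *Pdk3* at -0.29 (SE 0.26), the phosphatase gene *Pdp2* at 0.29 (SE 0.23) and *Pdk2*, the most abundant, at 0.015 (SE 0.33). Without WT replicate 3, 1 gene of the list was called, the phosphatase subunit *Pdpr*, named after its values were seen.

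Supply of the substrate 2-oxoglutarate was covered by 11 genes, of which 10 passed the filter. Of these, 3 were called lower and 0 higher (3.28% and 1.35% of all genes tested), with a median log2 fold change of -0.12. The aspartate transaminases *Got1* (-0.65, SE 0.27) and *Got2* (-0.61, SE 0.15), which convert 2-oxoglutarate and glutamate into each other, and *Slc1a5*, a glutamine importer (-0.62, SE 0.25), fell. The genotypes overlapped for *Got1* and *Slc1a5*. *Got1* was at -0.40 without *Esrra*-/- replicate 2 and *Slc1a5* at -0.41 without *Esrra*-/- replicate 3, and neither was called there. *Gpt*, the alanine transaminase and the most abundant gene of this list, stood at 0.19 (SE 0.27). The count was 1 without WT replicate 1 or 3, 0 without *Esrra*-/- replicate 1 and 1 when limma was run without a trend, where *Got1* (unadjusted p = 0.0543) and *Slc1a5* (unadjusted p = 0.0568) lost their calls.

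*Abhd11* was also set beside its own family and its neighbours on the chromosome. Of 15 other ABHD hydrolase genes that passed the filter, 0 were called by limma, and 2 had an unadjusted p under 0.05, both with positive fold changes (4.30% of all genes tested). *Abhd5*, the co-activator of adipose triglyceride lipase, stood at 8.48, 9.42 and 11.2 FPKM in WT and at 17.3, 14.2 and 11.6 FPKM in *Esrra*-/- (0.55, SE 0.18, adjusted p = 0.378, limma), with no overlap. *Abhd18*, listed under its older symbol *3110057O12Rik*, followed at 0.33 (SE 0.12). *Abhd12*, a lysophosphatidylserine lipase (0.47, SE 0.28), and *Abhd6*, a monoacylglycerol lipase and the most abundant (0.35, SE 0.23), did not pass. The family's median was 0.16, against -0.30 for *Abhd11*. Without WT replicate 3, *Abhd5* (0.66) and *Abhd6* (0.58) were called higher, and *Abhd5* was as well without *Esrra*-/- replicate 3 (0.69) and without replicate 3 of both genotypes (0.80). With no filter on low values *Abhd15*, at 0.517 ± 0.172 FPKM in WT and named after its values were seen, was called lower (-0.77, SE 0.32, adjusted p = 0.579, limma).

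Of 10 genes next to *Abhd11* on chromosome 5 that passed the filter, 0 were called and 0 had an unadjusted p under 0.05 in limma. Of these 10 genes 9 had positive fold changes, with a median of 0.13, where 5754 of 10596 genes tested were positive. *Wbscr22*, an rRNA methyltransferase gene, stood at 0.28 (SE 0.13), *Dnajc30* at 0.29 (SE 0.15), *Bcl7b* at 0.27 (SE 0.22) and *Cldn3*, a tight junction claudin and the most abundant of these genes, at 0.038 (SE 0.17). *Abhd11* thus had a sign opposite to most genes around it, a description that carries no test.

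Genes whose profile over the 6 libraries came nearest to a member's were named by the smallest root mean square distance, in log2 units, of their centred log2(FPKM + 0.1) values. For *Abhd11* these were *Saal1* (0.0403), *Grpel1* (0.0586), a nucleotide exchange factor of mitochondrial protein import, and *Ndrg3* (0.0600), against a median distance of 0.288 over all genes tested. For *Ogdh* they were *Esd* (0.0540), *D16H22S680E* (0.0540) and *Aes* (0.0563), all 3 highest in WT replicate 3 and in *Esrra*-/- replicate 3, against a median of 0.358. For *Dlst* they were *Ptpmt1* (0.0546), a mitochondrial phosphatase of cardiolipin synthesis, *Tmem50b* (0.0582) and *Vdac2* (0.0720), a channel of the outer mitochondrial membrane, against a median of 0.341. Every library shares its depth and cell makeup among all genes, so a small distance is a description.

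Promoter windows were read for all 7 genes to show where transcription starts and whether the extended site of ESRRA occurs in the letters there. RefSeq windows of 250 bases before to 50 bases after a start (from a table on GRCm38) were matched letter for letter to NCBIM37, which gave 16 windows for the 7 genes. The letters AAGGTCA on either strand, the core of the element that estrogen-related receptors bind, occurred in 1 of the 16 windows, at an *Ogdh* start, and in 4.72% of 32851 windows of all genes. The longer TCAAGGTCA, which contains the shorter letters, occurred in 0 of the 16 windows and in 0.423% of all. The match lies at chr11:6192168-6192174 and reads TGACCTT on the plus strand. The window with that match and a window of each member that separated the genotypes, *Abhd11*, *Dld* and *Lipt2*, are printed 5′ to 3′ on the strand of the gene, with the match in capitals. They cover chr11:6191923-6192222 for *Ogdh*, chr5:135484772-135485071 for *Abhd11*, chr12:32036287-32036586 (minus strand) for *Dld* and chr7:107307537-107307836 for *Lipt2*.
Ogdh: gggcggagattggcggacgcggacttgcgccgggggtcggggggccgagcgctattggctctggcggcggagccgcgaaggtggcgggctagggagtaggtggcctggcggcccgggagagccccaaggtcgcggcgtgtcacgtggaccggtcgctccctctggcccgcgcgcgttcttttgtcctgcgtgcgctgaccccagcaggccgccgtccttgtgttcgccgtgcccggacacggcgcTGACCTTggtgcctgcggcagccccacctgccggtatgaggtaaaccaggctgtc
Abhd11: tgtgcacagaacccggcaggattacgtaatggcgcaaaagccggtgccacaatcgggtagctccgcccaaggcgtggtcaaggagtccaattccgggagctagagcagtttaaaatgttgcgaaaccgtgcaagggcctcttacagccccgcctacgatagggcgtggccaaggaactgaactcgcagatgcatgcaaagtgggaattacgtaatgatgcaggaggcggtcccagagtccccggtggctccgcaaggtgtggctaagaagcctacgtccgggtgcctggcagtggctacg
Dld: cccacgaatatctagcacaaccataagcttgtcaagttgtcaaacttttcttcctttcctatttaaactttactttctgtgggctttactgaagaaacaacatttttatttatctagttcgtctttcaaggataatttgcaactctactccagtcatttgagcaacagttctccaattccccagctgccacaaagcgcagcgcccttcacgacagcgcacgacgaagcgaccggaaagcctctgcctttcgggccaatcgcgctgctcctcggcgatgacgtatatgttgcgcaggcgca
Lipt2: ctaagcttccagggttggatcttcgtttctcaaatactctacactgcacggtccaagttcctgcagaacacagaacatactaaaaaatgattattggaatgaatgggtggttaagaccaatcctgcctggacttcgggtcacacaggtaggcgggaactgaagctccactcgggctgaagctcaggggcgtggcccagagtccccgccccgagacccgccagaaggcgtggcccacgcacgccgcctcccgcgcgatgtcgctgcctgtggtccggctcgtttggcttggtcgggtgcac
A match is a description of letters and not of binding, and its absence says only that these letters are not in these 300 bases.

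**Figure D5:**
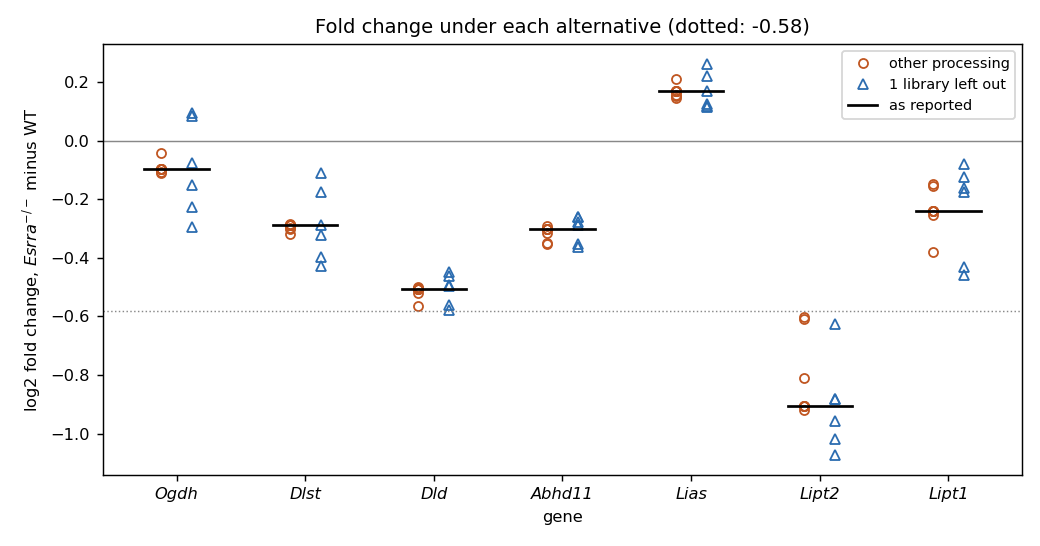
Log2 fold change (*Esrra*-/- minus WT) of the 7 genes as reported (bars), under other processing (circles) and with 1 library left out (triangles), with a dotted line at -0.58. *Lipt2* stays beyond the cut in each of its 14 alternatives, *Dld* between -0.58 and -0.45 in its 15, and *Ogdh* crosses 0.

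The alternatives moved the members by unequal amounts. *Lias* stayed positive in 15 of 15 alternatives (0.11 to 0.26), and *Dld*, *Dlst*, *Abhd11* and *Lipt1* stayed negative in 15 of 15. The other filters, no trend, the replicate block and the covariate for Y-linked transcripts cannot move a fold change. In those alternatives the sign was therefore fixed in advance. *Dld* kept the narrowest range relative to its size and reached an adjusted p of 0.0801 at the lowest and 0.762 at the highest, without a call. *Lipt1* ranged from -0.46 without WT replicate 3 to -0.082 without WT replicate 1.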

How the data were processed

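Transcripts of the duodenal epithelium had been sequenced in 6 libraries, 3 WT and 3 *Esrra*-/-, grouped here by the genotype in the labels. The authors checked reads with fastQC (0.11.3), quantified them with Kallisto against mm9 and calculated FPKM with DESeq2, and deposited FPKM for 22611 genes. FPKM has no counts behind it, so no count model was used. A second deposited table holds the authors' fold changes and p-values and was not used. All 10596 genes with mean FPKM above 1 were fitted on log2(FPKM + 0.1) with limma 3.58.1 (lmFit and eBayes with a trend, no covariate) in R 4.3.3. The code was tested on simulated data. Adjustment was by Benjamini-Hochberg over all genes tested. The study describes the libraries as biological replicates. The members, lists and markers were chosen with earlier results of these data known. Named genes are the 7 members, *Esrra*, *Abhd11os*, in each list every called gene, the 3 with the smallest p and the most abundant, and the 3 nearest profiles to *Abhd11*, *Ogdh* and *Dlst*. *Abhd15*, *Ankle1*, *Bckdha*, *Dbt*, *Fam168a*, *Gcsh*, *Kcne3*, *Lonp1*, *Mitd1*, *Mrpl18*, *Nfu1*, *P2ry6*, *Pdpr*, *Sucla2* and *Suclg1* lie outside this rule and were named after their values were seen. Of 109 listed related genes 106 were in the table and 94 were tested. Positions are from GENCODE M1 on NCBIM37, and promoter sequences from RefSeq. Alternatives were another pseudocount, other filters and scalings, no trend, a replicate block, a covariate for Y-linked transcripts and leaving out libraries. Figures were drawn with matplotlib 3.10.9.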

Additional observations from a re-analysis of the deposited data

How the results depend on the processing

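The log2 fold changes of *Abhd11*, *Dlst*, *Dld*, *Lias*, *Lipt1* and *Lipt2* kept their sign, and whether they were called, in all 15 alternatives (14 for *Lipt2*), while the unadjusted p of *Abhd11* rose above 0.05 in 6 of 15 and that of *Dlst* fell under it in 2 of 15. Other filters, no trend, the replicate block and the covariate for Y-linked transcripts cannot move a fold change, so the sign was fixed in those. The fold change of *Ogdh* reversed without WT replicate 3 (0.094) and without *Esrra*-/- replicate 2 (0.084), with a range of -0.30 to 0.094 over single libraries left out. The causes were not tested. The count of members called, 1, was 0 when FPKM had to exceed 1 in all 6 libraries, which removes *Lipt2* from the test, 0 at an adjusted p under 0.05 and 3 at an unadjusted p under 0.05 with any fold change. The 491 genes called over the whole table became 805 with no filter, which adds genes to the test, 4 at an adjusted p under 0.05, 1144 at an unadjusted p under 0.05 with any fold change, and 395 to 739 with 1 library left out (739 without *Esrra*-/- replicate 2). The 19 genes called in the related lists became 0 at an adjusted p under 0.05 as fitted and 10 to 20 with 1 library left out, with 10 without *Esrra*-/- replicate 1 and 11 without *Esrra*-/- replicate 2. At an adjusted p under 0.05, 4 genes of these lists passed under the covariate for Y-linked transcripts (*Pdha1*, *Dlat*, *Isca1* and *Fh1*), 3 under quantile normalization (those without *Dlat*) and 0 under each other alternative. In these lists 28 genes passed an unadjusted p under 0.05 in limma.

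The labels number the replicates in each genotype, but nothing says that a number marks a litter or a day, and deviations of same-numbered libraries from their genotype means correlated across genes at 0.012, 0.26 and 0.38. WT replicate 1 correlated better with *Esrra*-/- replicate 2 (0.18) than with *Esrra*-/- replicate 1, whereas the other same-numbered pairs were the best matches of their libraries. With so few libraries, these correlations cannot decide whether the numbers pair the libraries. A block for the replicate number lowered the SE of *Ogdh* from 0.26 to 0.088 and that of *Dlst* from 0.21 to 0.091. With the replicate number as a block, 633 genes were called, 1 member and 19 genes of the related lists were called, and 0 genes passed an adjusted p under 0.05. Over the other alternatives that count, 4 as reported, ran from 0 to 52, with 52 under the covariate for Y-linked transcripts, 32 under quantile normalization and 12 without *Esrra*-/- replicate 2. The number of reads behind each value is unknown, which bears most on *Lipt1* and *Lipt2* near 1 FPKM.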

Other observations

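A gene close to *Lipt2* on chromosome 7 was among those nearest to it in profile. The genes below were chosen after their values were seen. By root mean square distance of centred log2 profiles, the nearest to *Lipt2* were *Ankle1* (0.141), *P2ry6* (0.153) and *Kcne3* (0.160), against a median of 0.599 over all genes tested. *Kcne3*, a potassium channel subunit gene (chr7:107327207-107333374, NCBIM37/mm9), starts 17332 bases beyond the end of *Lipt2*. It stood at 30.4, 29.9 and 29.8 FPKM in WT and at 19.0, 23.5 and 12.9 FPKM in *Esrra*-/-. Like *Lipt2*, it was lowest in *Esrra*-/- replicate 3 and did not overlap between genotypes (log2 fold change -0.74, SE 0.21, adjusted p = 0.328, limma). The summed crypt and Paneth cell markers were also lowest in that library (104 and 1917 FPKM), and their part in this pattern was not tested. *P2ry6*, a purinergic receptor gene, lies 776277 bases away (-0.87, SE 0.34). Within 1000000 bases of *Lipt2*, 22 other genes were tested, of which 13 had a negative fold change, 2 were called lower (*Kcne3* and *P2ry6*) and 1 was called higher (*Fam168a*, 0.80, SE 0.27). Among all 10596 genes tested, 4842 had a negative fold change, 3.28% were called lower and 1.35% higher. The counts near *Lipt2* are a description that carries no test.

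For *Dld* the nearest profile was that of *Mrpl18*, a mitochondrial ribosome gene, at a distance of 0.0264 against a median of 0.359. *Mrpl18* stood at 37.0, 32.6 and 40.6 FPKM in WT and at 26.3, 24.1 and 28.4 FPKM in *Esrra*-/-, which did not overlap.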
